A study of Homo sapiens with 18 samples.

Results

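HEK-293T cells that carried a split form of the RNA-cutting enzyme Csy4 and had received its trigger, grazoprevir, were compared with HEK-293T cells given grazoprevir alone. The comparison is between 6 of the 18 RNA-seq libraries of the series, chosen by their labels and by no measured value. They are 3 of triggered split Csy4 (SplitCsy4_Grazoprevir) and 3 of grazoprevir without transfection (Grazoprevir). The drug is therefore the same on both sides, labelled 0.5 µM, and in the triggered group it was given 6 hours after transfection. Other groups of 3 libraries served to set differences side by side. They were untransfected cells with DMSO, untriggered split Csy4 (the same construct with DMSO) and full-length Csy4 with DMSO, all with a DMSO label of 0.5 µM. These groups, and untransfected cells with rapamycin (labelled 0.1 µM), were also part of the same fit. They therefore helped to set the filter, the scaling and the spread behind every p-value. Each label gives 70000 cells. The promoter of the construct, the share of cells that took it up and the time of harvest are not given in the sources used here. The labels name no cells transfected without a Csy4 construct, so transfection, construct and enzyme cannot be told apart in any difference between transfected and untransfected cells. Nothing in them says that replicates were separate cultures, and p-values therefore measure the spread between these samples, which may be technical.

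Csy4 is a bacterial endoribonuclease of the CRISPR system. It binds a short RNA hairpin and cuts at the base of that hairpin, and it is used in mammalian cells to process or silence transcripts that carry the hairpin. In the split form the protein is made in separate pieces, and the small molecule grazoprevir, developed as an inhibitor of the hepatitis C protease, is meant to bring the pieces together. HEK-293T is a human embryonic kidney line made to express a viral large T antigen, which binds p53. The pathways that receive most space below are general responders to stress and to growth signals. p53 is a transcription factor that turns on its own inhibitors, cell cycle brakes and death genes; AP-1 (FOS and JUN proteins) and the early growth response genes answer MAP kinase signals within a short time; YAP and TEAD form a transcription factor pair that reads cell density and tension.

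Library totals ran from 13711585 to 15827968 counts with grazoprevir alone and from 12362101 to 14659784 with triggered split Csy4, and 17966 genes had enough counts to be tested. The root mean square log2 difference between a triggered and a grazoprevir library, over 10122 genes averaging 10 CPM or more (CPM: counts scaled to a common library size), was 0.258 to 0.277 in the 9 pairs. Within a group it was 0.129 to 0.13 among triggered and 0.124 to 0.17 among grazoprevir libraries. Grazoprevir replicate 1 stood apart from the other grazoprevir libraries: the chi-square of its counts per gene was 4.63 against replicate 2 and 3.57 against replicate 3, while replicates 2 and 3 gave 2.21 and the triggered pairs 1.85 to 2.17. Counts of changed genes are therefore also given without it. No pair of libraries agreed within sampling noise. The summed level of the 12 marker genes of HEK-293 cells was 661.5 to 722 CPM with grazoprevir and 771.3 to 795.3 CPM with triggered split Csy4; 11 of them were tested and *NEFM*, a neurofilament gene, had too few counts. *VIM* and *LIN28B* made up most of the HEK-293 sum, at means of 350 and 235 CPM with grazoprevir and 408 and 255 CPM with triggered split Csy4. The other HEK-293 markers were lower, down to 1.09 CPM for *NEFL* with grazoprevir. They overlapped the levels of the fibroblast marker *COL3A1* (35.6 CPM) and the carcinoma marker *CDH1* (11.5 CPM). Of the markers of other cells, 1 of 8 blood markers, 4 of 10 fibroblast markers and 3 of 9 epithelial carcinoma markers had enough counts to be tested. Their summed levels were 3.31 to 4.893 CPM with grazoprevir and 2.681 to 2.993 with triggered split Csy4 for blood, 53.18 to 57.89 and 46.96 to 55.48 for fibroblasts, and 13.77 to 16.33 and 12.7 to 13.46 for carcinoma lines.

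Triggered split Csy4 against grazoprevir alone asked what the split system does to the cells' own transcripts when the drug is present on both sides. Where members of the p53, AP-1, ERK feedback and YAP/TEAD lists passed the test, most were higher in the transfected cells (19, 8, 10 and 15 rose of 24, 15, 18 and 29 tested; 4, 0, 1 and 2 fell). Where members of the ribosomal protein, respiratory complex I, tRNA synthetase and DNA replication lists passed, most were lower (73, 20, 13 and 26 fell of 79, 37, 23 and 50 tested; 0, 0, 1 and 4 rose). Most changes were small. In edgeR's quasi-likelihood test, 5775 of the 17966 genes (32.1%) passed a Benjamini-Hochberg adjusted p below 0.05, called genes from here on. Of these, 2906 were higher (16.2% of those tested) and 2869 lower (16%). A change of 2-fold or more was seen in 337 higher and 133 lower genes, and 81.3% stayed under 1.5-fold. The genes changed at least 2-fold were mostly low in level. Those with an annotation had median levels of 1.09 CPM (higher) and 1.25 CPM (lower), against 22.7 CPM for all tested. The median log2 fold change of all tested genes was -0.0042, the background for every list below. Without grazoprevir replicate 1 there were 5458 calls (2746 higher and 2712 lower). With only the groups compared in the fit there were 5333 (2661 higher and 2672 lower). Against a change of 1.2-fold instead of no change, 1160 genes passed, 619 higher and 541 lower, so most single members of the lists below are called for a small change. In 40.8% of tested genes the 3 libraries of one group all lay above the 3 of the other. Since RNA was taken from whole cultures, a modest change in all cells and a large change in a few cannot be told apart.

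The largest rises were led by *DNAH17* (chromosome 17, 78423697 to 78577396 on GRCh38), a heavy chain of the dynein that moves cilia. It was at 1.84, 1.42 and 1.61 CPM in the grazoprevir libraries and at 7.74, 7.39 and 7.31 CPM in the triggered libraries, a log2 fold change of 2.2 ± 0.2 (SE, n = 3 in each group). *AMH*, the gene for anti-Müllerian hormone (chromosome 19, 2249323 to 2252073), went from 5.81, 6.47 and 3.99 CPM to 23.3, 22.8 and 20.2 CPM, a log2 fold change of 2.03 ± 0.13. All 3 triggered libraries stood above every grazoprevir library for both genes, as the rule for naming the largest changes required. *CMYA5*, a scaffold protein of muscle (chromosome 5, 79689836 to 79800222), was at 3.82, 4.27 and 3.41 CPM against 14.2, 13.6 and 13.7 CPM, and *FILIP1L*, a relative of filamin-interacting proteins (chromosome 3, 99828811 to 100114501), at 1.47, 1.94 and 2.12 CPM against 5.77, 7.07 and 7.31 CPM. Their log2 fold changes were 1.85 ± 0.15 and 1.85 ± 0.22. *ANKRD1* and *DUSP8* followed and are described with their pathways. The rest of the 12 largest rises were *DCAF4L1* (1.42), the zinc finger gene *ZNF79* (1.39), *CCDC183* (1.39), the AP-1 member *FOSL1* (1.33), *INPP5D*, a phosphatase of inositol lipids best known in blood cells (1.28), and *LSMEM1* (1.28). *CCDC183* overlaps an antisense gene and the strand setting of the counting is not stated, so its reads cannot be assigned to one strand. The highest of the 12 adjusted p-values in edgeR's test was 5.93e-06, for *CCDC183*.

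Among the largest falls, the levels of *ABHD14B*, a small hydrolase (chromosome 3, 51968510 to 51974630), dropped from 44.2, 45.3 and 45.6 CPM to 17.3, 20.7 and 19.3 CPM. Its log2 fold change was -1.24 ± 0.081. *PLEKHJ1*, a gene with a lipid-binding pleckstrin homology domain (chromosome 19, 2229981 to 2236329), was at 29.8, 33.2 and 29.6 CPM with grazoprevir and at 10.7, 16.1 and 15.4 CPM with triggered split Csy4, a log2 fold change of -1.13 ± 0.096. *PPOX*, an enzyme of heme synthesis, fell by 1.07 ± 0.12 on the log2 scale, from 17.4, 19 and 19.4 CPM to 7.01, 10.3 and 9.36 CPM. By the same rule, no grazoprevir library of these genes was as low as any triggered library. Lower still in fold were *MFSD3*, a membrane transporter (-1.36), *DNASE1L1*, a relative of the nuclease DNase I (-1.35), *TRAPPC6A*, a subunit of a vesicle tethering complex (-1.32), and *HFM1*, a DNA helicase of meiosis (-1.29). The remaining falls by this rule were *MIR762HG* (-1.2), the repair-related *RDM1* (-1.14), *TMEM80* (-1.08), *TMEM35B* (-1.08) and *TMEM255A* (-1.08), with a highest adjusted p of 1.86e-05 for *MIR762HG*.

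**Figure D1:**
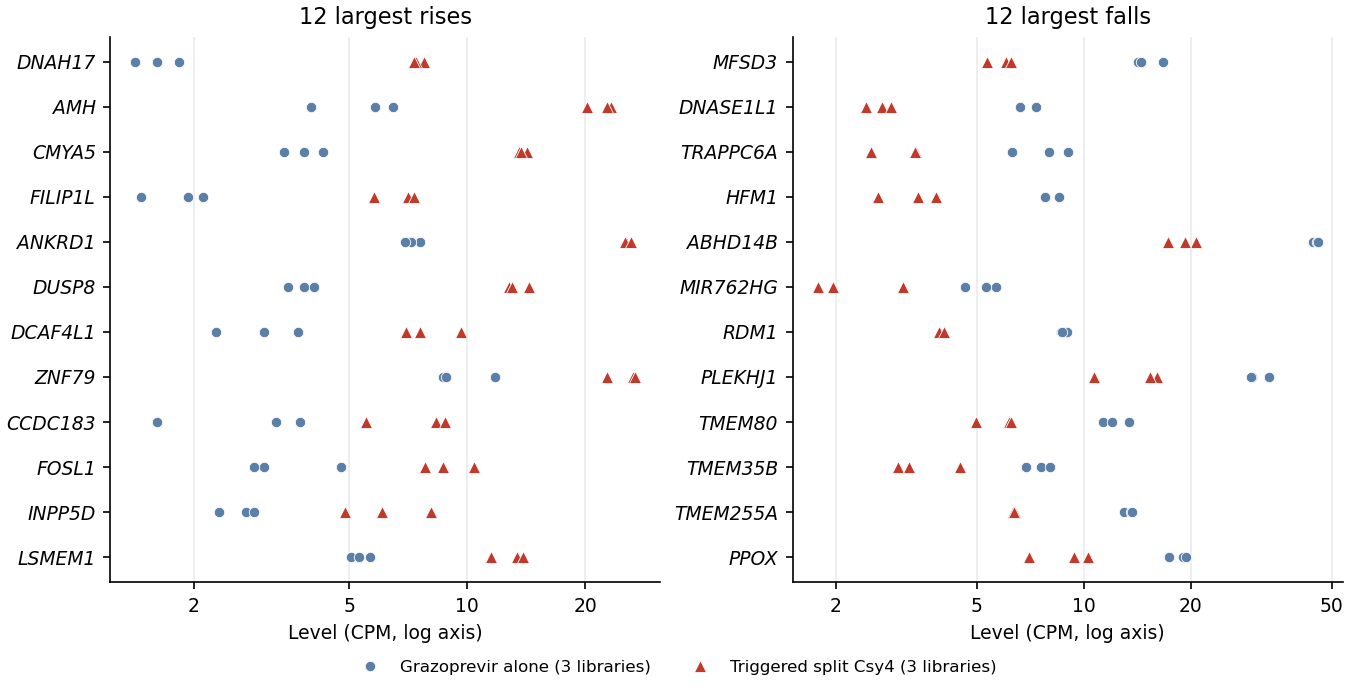
Levels in CPM (log axis) of the 12 genes with the largest rises and the 12 with the largest falls with triggered split Csy4; each point is 1 library, 3 of grazoprevir alone and 3 of triggered split Csy4. In every gene shown the points of the 2 groups are apart, as the rule for naming them required.

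p53 and its targets came first among the stress programmes. Of 24 feedback, arrest and repair targets, 19 rose and 4 fell, with a median log2 fold change of 0.354 (9 rose and 0 fell against a 1.2-fold change; 16 and 4 without grazoprevir replicate 1; 2 fell without triggered replicate 1 or 3 or grazoprevir replicate 2). *MDM2*, the ubiquitin ligase that degrades p53 (chromosome 12, 68808172 to 68850686), was at 226, 247 and 262 CPM in grazoprevir libraries and at 368, 366 and 369 CPM in triggered libraries, a log2 fold change of 0.58 ± 0.036 with an adjusted p of 9.94e-23 (edgeR). *PPM1D*, a phosphatase that switches off the DNA damage kinases, went from 47.4, 55.2 and 54.1 CPM to 85.8, 80.9 and 81.8 CPM. *TP53INP1*, which promotes p53-driven death and autophagy, went from 20.7, 24.2 and 22.8 CPM to 41.2, 46.1 and 41.6 CPM. All 3 genes were separated between the groups, at log2 fold changes of 0.66 ± 0.058 for *PPM1D* and 0.92 ± 0.073 for *TP53INP1*. The cell cycle brake *CDKN1A* (p21) was at 33.7, 35.8 and 38.0 CPM and then at 46.6, 47.8 and 48.0 CPM, a log2 fold change of 0.40 ± 0.065. *BTG2*, an antiproliferative gene, rose by 0.60 ± 0.063, *PLK3* by 1.00 ± 0.16 and *PLK2* by 1.08 ± 0.18, both kinases of stress responses. In the other direction, *FDXR*, a mitochondrial reductase, fell by 0.28 ± 0.079 and *RPS27L*, a ribosomal protein-like target, by 0.25 ± 0.06 on the log2 scale. *DDB2*, a sensor of ultraviolet damage, was at 37.7, 36 and 39.4 CPM against 35.5, 38.8 and 39.8 CPM and overlapped between groups (adjusted p = 0.897, edgeR). Among 15 apoptosis targets 6 rose and 1 fell, with a median of 0.159: the nuclease *AEN* rose from 72.5, 72.7 and 72.5 CPM to 106, 105 and 105 CPM, the death effector *BAX* by 0.34 ± 0.06 and the death receptor *FAS* by 0.50 ± 0.095, while *TP53I3* was at -0.29 ± 0.11, a call (adjusted p = 0.0304, edgeR) that was lost without triggered replicate 2 or 3 or grazoprevir replicate 2 (0.134, 0.0529 and 0.148). *GDF15*, a stress cytokine, was scarcely expressed with grazoprevir (0.147, 0.453 and 0.515 CPM) and at 2.26, 2.19 and 1.71 CPM with triggered split Csy4.

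Genes that answer MAP kinase signals rose wherever these lists held a call. Of 15 AP-1 family genes 8 rose and 0 fell (median 0.348; 10 and 0 without grazoprevir replicate 1), and of 22 EGR, IER and KLF early genes 8 rose and 0 fell (median 0.173). *FOSL1* was at 3.02, 2.85 and 4.76 CPM with grazoprevir and at 10.4, 8.69 and 7.79 CPM with triggered split Csy4, and its relative *FOSL2* at 4.49, 4.14 and 4.25 CPM against 9.42, 11.2 and 9.77 CPM. The groups did not overlap for either, which the naming rule had required of *FOSL1*. *FOS* itself was low, 0.441, 0.905 and 0.837 CPM against 2.55, 3.01 and 2.39 CPM, with a log2 fold change of 1.83 ± 0.33. *ATF3*, a stress-induced partner of AP-1, rose by 0.76 ± 0.058, from 46.0, 45.3 and 41.7 CPM to 76.9, 74.1 and 73.7 CPM. *JUN* rose by 0.26 ± 0.039 and *JUND* by 0.32 ± 0.078, whereas *JUNB* was at 0.30 ± 0.13 with overlapping groups (adjusted p = 0.0744, edgeR). *EGR1*, the early growth response factor that names that list, was at 2.28, 2.33 and 2.25 CPM against 4.01, 3.66 and 4.17 CPM. *ARC*, an early gene of neurons, was at 0.662, 1.23 and 0.515 CPM against 3.8, 5.28 and 3.62 CPM, a log2 fold change of 2.37 ± 0.3.

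Genes that feed back on the same kinases rose in part. In the ERK feedback list, which holds transcription factors of the ETV group, SPRY and SPRED inhibitors and other ERK-responsive genes, 10 of 18 rose and 1 fell, at a median of 0.536 (7 rose and 0 fell against a 1.2-fold change; 11 and 1 without grazoprevir replicate 1). *EPHA2*, an ephrin receptor, was at 23.5, 20.2 and 20.1 CPM with grazoprevir and at 38.6, 40.3 and 37.3 CPM with triggered split Csy4. *SPRED2*, an inhibitor of the RAS to ERK step, went from 29.3, 28.2 and 27 CPM to 44.5, 42.7 and 42.2 CPM. Both were clear of overlap, with log2 fold changes of 0.87 ± 0.08 and 0.62 ± 0.075. The cytokine *LIF* rose by 1.21 ± 0.19 and *ETV5* by 1.71 ± 0.28, while its relative *ETV4* fell by 0.53 ± 0.15 on that scale. Of 11 DUSP phosphatases, which remove the activating phosphates of MAP kinases, 5 rose and 0 fell, at a median of 0.321 (0.193 without grazoprevir replicate 3). *DUSP8*, which acts on the stress kinases JNK and p38 (chromosome 11, 1554051 to 1572848), was at 3.82, 4.07 and 3.48 CPM with grazoprevir and at 14.4, 12.8 and 13 CPM with triggered split Csy4, a log2 fold change of 1.82 ± 0.15. *DUSP1* went from 13.8, 14.4 and 11.4 CPM to 19.6, 25.1 and 28.7 CPM, and *DUSP16* rose by 0.43 ± 0.056. *DUSP4*, *DUSP5* and *DUSP6*, usual readouts of ERK activity, were not called, at log2 fold changes of 0.26 ± 0.25, 0.32 ± 0.18 and -0.33 ± 0.50.

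YAP/TEAD targets rose in 15 of 29 cases and fell in 2, at a median of 0.234 (10 rose and 0 fell against a 1.2-fold change; 15 and 1 without grazoprevir replicate 1; 1 also fell without triggered replicate 1 or 2 or grazoprevir replicate 3), and their summed level was 959.3 to 994.5 CPM with grazoprevir and 1201 to 1217 CPM with triggered split Csy4. *ANKRD1*, a nuclear ankyrin repeat protein of stretched muscle and a standard readout of YAP activity (chromosome 10, 90912096 to 90921087), was at 7.58, 7.18 and 6.95 CPM with grazoprevir and at 25.5, 25.3 and 26.2 CPM with triggered split Csy4, a log2 fold change of 1.83 ± 0.11 (adjusted p = 9.97e-24, edgeR). *AMOTL2*, a cell junction protein that holds YAP back, went from 15.7, 12.7 and 14.9 CPM to 29.3, 31.7 and 31.9 CPM. *LATS2*, the kinase that inactivates YAP, was at 12.3, 13.6 and 12.2 CPM and then at 18.9, 25.1 and 21.7 CPM. The matrix protein genes *CCN1* and *CCN2* rose by 0.53 ± 0.083 and 0.77 ± 0.13, and *YAP1* itself by 0.23 ± 0.05. *TEAD1* rose by 0.53 ± 0.044 and *TEAD2* fell by 0.36 ± 0.065 on the log2 scale, so the TEAD factors moved apart. Actin and SRF genes were mixed, with 10 of 38 higher and 7 lower (median 0.037): *ACTB*, beta-actin (chromosome 7, 5527148 to 5530601), rose from 1450, 1380 and 1390 CPM to 1800, 1770 and 1810 CPM and *MRTFA*, a coactivator of SRF, by 0.60 ± 0.098, while the actin nucleation subunit *ARPC3* fell by 0.31 ± 0.044. Among 22 TGF-beta and BMP response genes 9 rose and 1 fell (median 0.285; 3 and 2 fell without triggered replicate 1 and grazoprevir replicate 2). *ID3*, a BMP-responsive inhibitor of helix-loop-helix factors, went from 46.3, 40.2 and 42.2 CPM to 79.1, 84.5 and 83.3 CPM, and the inhibitory SMADs *SMAD6* and *SMAD7* rose by 0.72 ± 0.067 and 0.85 ± 0.10. *ID2* fell by 0.22 ± 0.051.

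The promoters of 4 of these genes are shown because their expression moved together and because the windows hold motifs of the factors named above. Each is the 250 bases before the gene's start in the RefSeq table on GRCh38.p14, 5′ to 3′ on the gene's own strand, which is the minus strand in all 4. Capitals mark matches, on either strand, to GGAATG (the TEAD motif), TGANTCA (a loose AP-1 pattern, with any base at N) and TGACGTCA (the cyclic AMP response element, CRE). These matches do not overlap each other here.
ANKRD1, chr10:90921088-90921337: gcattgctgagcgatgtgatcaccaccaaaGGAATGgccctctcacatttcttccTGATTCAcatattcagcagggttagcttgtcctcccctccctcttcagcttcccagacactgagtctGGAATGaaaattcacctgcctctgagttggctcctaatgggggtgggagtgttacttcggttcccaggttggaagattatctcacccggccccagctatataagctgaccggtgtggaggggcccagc
EPHA2, chr1:16156070-16156319: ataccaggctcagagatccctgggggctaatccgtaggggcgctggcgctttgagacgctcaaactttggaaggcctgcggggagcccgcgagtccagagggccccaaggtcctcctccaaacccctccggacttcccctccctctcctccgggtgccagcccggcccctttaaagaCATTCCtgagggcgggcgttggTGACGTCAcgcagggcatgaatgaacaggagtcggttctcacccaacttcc
DUSP1, chr5:172771196-172771445: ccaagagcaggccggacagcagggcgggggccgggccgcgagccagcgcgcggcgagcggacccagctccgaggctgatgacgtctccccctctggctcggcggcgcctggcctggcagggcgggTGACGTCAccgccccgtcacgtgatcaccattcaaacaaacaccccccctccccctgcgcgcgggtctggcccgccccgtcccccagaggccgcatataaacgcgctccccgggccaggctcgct
DUSP8, chr11:1572272-1572521: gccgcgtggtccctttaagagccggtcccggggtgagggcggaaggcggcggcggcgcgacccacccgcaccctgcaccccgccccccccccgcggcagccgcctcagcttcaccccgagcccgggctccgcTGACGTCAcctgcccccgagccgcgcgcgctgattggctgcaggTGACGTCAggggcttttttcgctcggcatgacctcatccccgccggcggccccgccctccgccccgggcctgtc

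The *ANKRD1* window holds the TEAD motif from 220 to 215 and from 128 to 123 bases before the start. Between them, at 195 to 189, is a match to the loose AP-1 pattern, with T as its middle base. In *EPHA2* a TEAD match at 73 to 68 stands close to a CRE at 51 to 44. The CRE of *DUSP1* lies at 125 to 118, and *DUSP8* has a pair, at 118 to 111 and at 74 to 67; its window lies inside the listed gene span, before the start that the RefSeq table uses. Of 22 YAP/TEAD targets with a window, 7 (31.8%) hold GGAATG, against 9.42% of the 12604 tested genes with a window. Of these 7, *ANKRD1*, *CCN2*, *NUAK2*, *PTPN14* and *YAP1* rose, *FOXF2* was at 0.16 and *TGFB2* at -0.28, both not called. CRE matches stand in 3 of 11 AP-1 family genes (27.3%) and in 2 of 9 DUSP genes (22.2%), against 2.73% of all, and no window of these 2 lists holds TGANTCA, which 3.9% of all windows do. The CArG box of SRF is in 7 of 35 actin and SRF genes (20%) and in 0.984% of all. A match describes letters in this window and not a bound site.

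**Figure D2:**
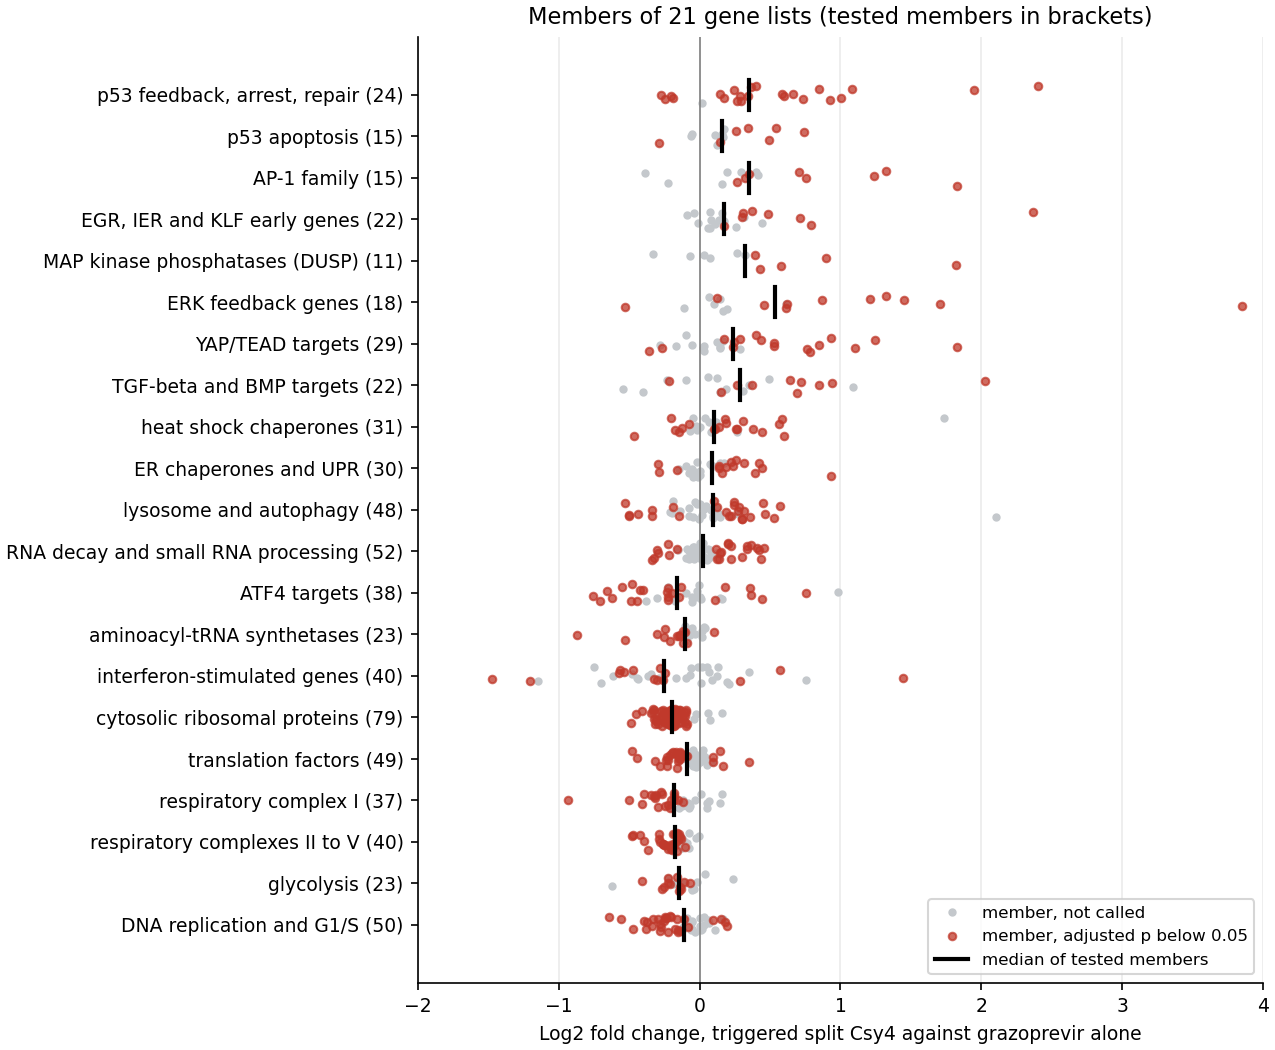
Log2 fold change of the tested members of 21 gene lists with triggered split Csy4 against grazoprevir alone; each point is 1 gene, red where its adjusted p is below 0.05, and the black bar is the list's median. The medians of the p53, AP-1, ERK feedback and YAP/TEAD lists lie above 0, and those of cytosolic ribosomal proteins, respiratory chain subunits and tRNA synthetases below 0.

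Protein folding genes moved in both directions. Of 31 heat shock and chaperone genes 13 rose and 6 fell (median 0.103; 3 and 1 against a 1.2-fold change). *HSPA4*, a nucleotide exchange factor of HSP70, rose from 545, 538 and 530 CPM to 684, 655 and 663 CPM, and *BAG3*, a partner of HSP70, from 39.4, 32.6 and 37.3 CPM to 55.1, 56.7 and 53.7 CPM. The HSP90 gene *HSP90AB1* fell by 0.18 ± 0.027 and the mitochondrial chaperonin *HSPD1* by 0.15 ± 0.029. *HSPA1B* rose by 0.26 ± 0.032, but its near-identical copy *HSPA1A* (0.26 ± 0.29, not called) can share its reads. Of 30 endoplasmic reticulum stress genes 12 rose and 3 fell (median 0.089; 1 and 0 against a 1.2-fold change). *PPP1R15A* (GADD34), which restarts translation after stress, was the exception in size, at 28, 28.7 and 28.3 CPM against 53.1, 49.6 and 59.7 CPM, a log2 fold change of 0.93 ± 0.071. *DDIT3* (CHOP) rose by 0.44 ± 0.11 and the chaperone *HSPA5* by 0.16 ± 0.029, while the chaperone *HYOU1* fell by 0.29 ± 0.039.

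ATF4 targets, the amino acid response, went down more often than up: 6 of 38 rose and 17 fell, at a median of -0.16 (1 and 9 against a 1.2-fold change). *SHMT2*, which makes glycine and one-carbon units in mitochondria, was at 219, 211 and 212 CPM with grazoprevir and at 129, 130 and 135 CPM with triggered split Csy4, a log2 fold change of -0.71 ± 0.041. The serine synthesis enzymes *PHGDH* and *PSAT1* fell by 0.45 ± 0.04 and 0.42 ± 0.035, and *PCK2*, a mitochondrial carboxykinase, by 0.76 ± 0.088. All were lower in each triggered library than in each grazoprevir library. *SLC3A2*, an amino acid transporter chain, and *SESN2*, a leucine sensor, rose by 0.36 ± 0.044 and 0.37 ± 0.059, and *ATF4* mRNA was at -0.022 ± 0.032 with overlapping groups. Cytosolic tRNA synthetases fell in 13 of 23 cases and rose in 1 (median -0.105), a count that was 9 and 0 without triggered replicate 1 and 2 and 0 against a 1.2-fold change. *QARS1*, the glutamine enzyme (chromosome 3, 49095932 to 49104757), fell from 210, 203 and 198 CPM to 106, 118 and 110 CPM, a log2 fold change of -0.87 ± 0.043, and *VARS1*, the valine enzyme, by 0.53 ± 0.046. The one higher was *RARS1*, at 0.1 ± 0.039 (adjusted p = 0.0294, edgeR), a call lost without triggered replicate 1 or 2 or grazoprevir replicate 3 (0.0744, 0.158 and 0.178).

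Among antioxidant NRF2 targets 8 rose and 8 fell of 27. *HMOX1*, heme oxygenase, was at 18.2, 16.4 and 17.9 CPM against 29.1, 32.7 and 32.2 CPM (log2 fold change 0.84 ± 0.092), while the pentose phosphate enzyme *TALDO1* fell by 0.34 ± 0.043. Xenobiotic response genes were called in 1 of 10 cases, *TIPARP* at 0.31 ± 0.072; 1 more gene was called, lower, without triggered replicate 1, and 2 more without grazoprevir replicate 3. Interferon-stimulated genes fell in 11 of 40 cases and rose in 3 (median -0.255; 3 and 1, in the same order, against a 1.2-fold change). That median was -0.169 without triggered replicate 1 and -0.0409 with no filter on low counts. *IFIT1*, which binds foreign RNA caps, went from 61.4, 60.6 and 54.9 CPM to 41.3, 39.4 and 41.0 CPM, and *IFIT2* from 31.7, 32.5 and 32.7 CPM to 23.1, 20.1 and 22.1 CPM. The RNA sensors *EIF2AK2* (PKR) and *DDX58* (RIG-I) rose by 0.28 ± 0.043 and 0.57 ± 0.11. Of 18 NF-kB targets 3 rose and 4 fell: *RELA* rose by 0.40 ± 0.064 and the chemokine *CCL5* fell by 0.86 ± 0.19.

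Cytosolic ribosomal protein genes shifted nearly as a block. Of 79 tested, 73 fell and 0 rose, at a median of -0.197 (73 and 0 without grazoprevir replicate 1), and their summed level was 67720 to 69370 CPM with grazoprevir and 57730 to 60410 CPM with triggered split Csy4. Only 5 passed against a 1.2-fold change, since most moved by less. *RPLP0*, the stalk protein of the large subunit (chromosome 12, 120196699 to 120201111), was at 1550, 1570 and 1550 CPM and then at 1090, 1100 and 1140 CPM, a log2 fold change of -0.48 ± 0.028. *RPS3* of the small subunit fell from 1440, 1460 and 1450 CPM to 1030, 1050 and 1100 CPM. Grazoprevir alone stood above DMSO for part of this list (10 of 79 called higher, 0 lower, median 0.078). Against DMSO, triggered split Csy4 gave 44 falls and 0 rises (median -0.117), and untriggered split Csy4 20 and 2 (-0.054). For triggered split Csy4 against grazoprevir alone, the median was -0.147 after a correction for transcript length and GC content, with 66 falling and 1 rising. Translation factors fell in 24 of 49 cases and rose in 5 (median -0.089): *EIF3L*, an initiation subunit, fell by 0.44 ± 0.034 and *EEF1A1*, the elongation factor, by 0.24 ± 0.025, while *EIF5* rose by 0.35 ± 0.033. Ribosome biogenesis factors rose in 6 and fell in 12 of 44. Mitochondrial ribosomal proteins rose in 8 and fell in 23 of 80 (median -0.066), with *MRPS34* at -0.58 ± 0.056. With the length and GC correction 14 of these rose and 18 fell (median -0.0294). Against DMSO, triggered split Csy4 gave 13 rises and 14 falls (median -0.009).

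Respiratory chain genes fell without an exception among those called. In complex I 20 of 37 fell and 0 rose (median -0.184), and in complexes II to V 30 of 40 fell and 0 rose (median -0.178), with 3 and 4 falls against a 1.2-fold change. Grazoprevir alone stood above DMSO at medians of 0.084 and 0.073, with 0 calls in either list. Against DMSO both triggered medians were -0.095. Untriggered split Csy4 against DMSO gave 5 rises and 7 falls (median -0.028) and 1 and 9 (-0.046). With the length and GC correction, complex I had 19 falls and 1 rise. *NDUFV1*, a flavoprotein of complex I, was at 133, 131 and 126 CPM with grazoprevir and at 94.1, 91.4 and 90.3 CPM with triggered split Csy4. *UQCRC1*, a core protein of complex III, fell by 0.48 ± 0.047 and *ATP5F1C*, the rotor shaft of ATP synthase, by 0.40 ± 0.04. The 13 mitochondrially encoded mRNAs have 0 counts in the table, so that side of the chain was not measured. Glycolysis genes fell in 12 of 23 cases with 0 rising (median -0.145), among them *GAPDH*, at 2520, 2420 and 2380 CPM against 2000, 2000 and 2080 CPM. Among 17 hypoxia targets 6 fell and 2 rose (1 rose without triggered replicate 1 or grazoprevir replicate 2), with the collagen hydroxylase *P4HA1* at -0.51 ± 0.046. Fatty acid synthesis genes fell in 6 of 14 with 0 rising, and none of the 6 passed against a 1.2-fold change. Cholesterol genes split evenly, 6 rising and 6 falling of 24: *SC5D*, a sterol desaturase, rose by 0.40 ± 0.042, while *INSIG1*, the sterol-sensing brake of the pathway, fell by 0.33 ± 0.046.

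DNA replication genes fell in 26 of 50 cases and rose in 4 (median -0.114; 4 and 0 against a 1.2-fold change). *POLA1*, the catalytic subunit of polymerase alpha, fell from 200, 199 and 204 CPM to 130, 126 and 130 CPM, a log2 fold change of -0.65 ± 0.043, and *CDC45*, part of the replicative helicase, from 78.4, 79.0 and 78.7 CPM to 51.3, 50.9 and 57.9 CPM. Of the 4 higher genes, the origin factors *CDT1*, *ORC1* and *ORC6* were at 0.2, 0.18 and 0.15, and this count was 2, 1, 1 and 2 without triggered replicates 1 and 3 and grazoprevir replicates 2 and 3. Of 39 G2/M genes 11 rose and 7 fell, with the spindle kinase *TTK* at 0.31 ± 0.046 and *TOP2A*, topoisomerase II, at -0.39 ± 0.031. In the MYC and MAX network *MYC* fell from 211, 203 and 195 CPM to 152, 144 and 149 CPM, and its antagonist *MXD1* rose from 8.75, 9.51 and 9.53 CPM to 22.2, 21.7 and 18.5 CPM, while another antagonist, *MXD3*, fell by 0.83 ± 0.19. In all, 2 of the 11 network genes rose and 3 fell.

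RNA-processing genes were led by *PTBP2*, the neuronal relative of the splicing repressor PTB (chromosome 1, 96721784 to 96823739). It was at 65.1, 78.6 and 71.4 CPM with grazoprevir and at 153, 154 and 141 CPM with triggered split Csy4, a log2 fold change of 1.05 ± 0.051 and, with *QARS1*, the smallest adjusted p of a named gene in this comparison (3.53e-28, edgeR). In its list of splicing factors and their kinases 8 of 32 rose and 5 fell (8 and 3 fell without grazoprevir replicates 1 and 3); the kinases *DYRK1A* and *CLK4* rose by 0.61 ± 0.052 and 0.60 ± 0.069, and *HNRNPA1* fell by 0.29 ± 0.028. Among 52 RNA decay and small RNA genes 17 rose and 7 fell, at a median of 0.023. *DCP1A*, a decapping cofactor, rose by 0.45 ± 0.05 and *AGO2*, the slicing Argonaute, by 0.36 ± 0.038. Hosts of small nucleolar RNAs rose in 3 and fell in 8 of 23: *SNHG1* went from 205, 207 and 210 CPM to 314, 315 and 308 CPM, and *SNHG5* from 102, 107 and 103 CPM to 69.6, 70.4 and 75.5 CPM. Of 20 replication-dependent histone genes 3 rose, at low levels and with near-identical copies that share reads, and 1 rose without triggered replicate 3.

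Among 48 lysosome and autophagy genes 17 rose and 8 fell (median 0.093, and 0.0562 without grazoprevir replicate 3; 4 and 4 against a 1.2-fold change). The autophagy genes *ULK1* and *GABARAPL1* and the lysosomal regulator *TFE3* rose by 0.57 ± 0.082, 0.53 ± 0.06 and 0.47 ± 0.068, and the enzymes *GLA* and *HEXA* and the autophagy factor *BECN1* fell by 0.44 ± 0.041, 0.50 ± 0.061 and 0.53 ± 0.071. In the mTOR list 12 of 37 rose and 8 fell: *RICTOR*, of mTOR complex 2, rose by 0.51 ± 0.054 and the S6 kinase *RPS6KB2* fell by 0.55 ± 0.067. *FKBP1A*, the protein that rapamycin binds, fell from 372, 385 and 369 CPM to 291, 276 and 282 CPM. *MTOR* itself was at 197, 175 and 185 CPM against 170, 177 and 181 CPM, with overlapping groups (log2 fold change -0.077 ± 0.044, adjusted p = 0.183, edgeR). Of 40 proteasome genes 11 rose and 11 fell, and the first count was 7 without triggered replicate 1, 6 without triggered replicate 3 and 7 without grazoprevir replicate 2.

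Called genes shared features that no label used. Among protein-coding genes, those that rose had a median transcript length of 2450 bases and those that fell 1520, against 1880 for all tested. Their gene spans were 44.9 and 25.6 kb, against 33.6 kb for all. Across 15852 genes, which are not independent replicates, the log2 fold change went with transcript length at a Spearman rho of 0.13 and with GC content at -0.072. The grazoprevir libraries themselves showed a correlation of level with length, relative to the mean of all libraries, of -0.13 to -0.097, and the triggered libraries 0.041 to 0.094, while DMSO libraries were at -0.032 to -0.023. With a correction for length and GC content, list medians went from -0.209 to -0.147 for cytosolic ribosomal proteins, from -0.196 to -0.151 for complex I, from -0.157 to -0.118 for glycolysis and from -0.117 to -0.0752 for tRNA synthetases, in the same genes without and with it. Those of the p53 feedback and YAP/TEAD lists went from 0.342 to 0.308 and from 0.222 to 0.208. Position behind another gene was a further feature, and it differed between the sets, here of all annotated genes, coding or not. A gene on the same strand ended within 5 kb before the start of 11.1% of those called higher and 15% of those called lower, against 12.7% of all tested. Of 221 annotated genes that rose at least 2-fold, 18.6% had this position, against 12.4% of those that fell at least 2-fold. Median levels in these 2-fold sets were low, at 1.09 and 1.25 CPM. *AMH* starts 630 bases after the splicing factor gene *SF3A2*, which went from a mean of 54.9 to 64.6 CPM (log2 fold change 0.24 ± 0.065). *CMYA5* lies 3229 bases behind *TENT2* (-0.12 ± 0.06, not called), and *CCDC183* 3093 bases behind *TMEM141*, which fell by 0.77 ± 0.076. Where reads run past the end of the first gene they would count for the second, and their part in these rises was not tested.

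Untriggered split Csy4 against DMSO is the same transfection without the trigger and shares no library with the comparison above. It called 5185 genes (28.9%). Of the 5775 genes called with the drug, 3669 (63.5%) were also called there in the same direction, which is 70.8% of the untriggered calls, and 10 in the opposite direction. Over 10136 genes averaging 10 CPM or more the log2 fold changes had a Pearson correlation of 0.854 and a Spearman correlation of 0.83, given as a description since genes share libraries. The slope of the untriggered on the triggered change, fitted through the origin, was 0.776. Noise in the triggered changes lowers such a slope, so it does not measure whether the untriggered changes were smaller. *CMYA5* stood at 1.93 without and 1.85 with the trigger, *ABHD14B* at -1.34 and -1.24, *PTBP2* at 1.01 and 1.05, and *QARS1* at -0.81 and -0.87. For lists, the YAP/TEAD median was 0.18 without the trigger (12 rose and 2 fell) and 0.234 with it, the p53 feedback median 0.179 (12 and 1) and 0.354, and the ribosomal protein median -0.054 (2 and 20) and -0.197.

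**Figure D3:**
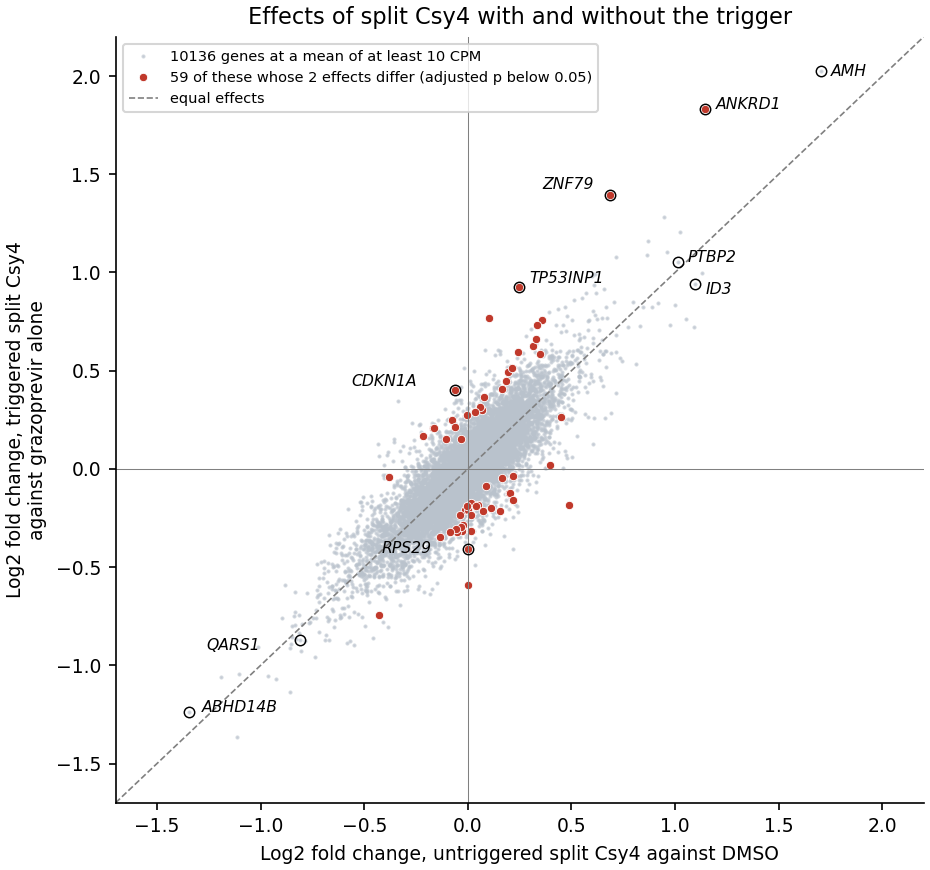
Log2 fold change of split Csy4 against untransfected cells with DMSO (horizontal) and with grazoprevir on both sides (vertical) for 10136 genes averaging 10 CPM or more; coloured points are the 59 of them whose 2 changes differed at an adjusted p below 0.05. Most genes lie along the diagonal, and *TP53INP1* stands above it.

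Whether the effect of split Csy4 differed between drug and solvent was tested as an interaction, the difference with grazoprevir less the difference with DMSO. It asks what depends on the trigger once the drug's own effect on untransfected cells is taken out. edgeR called 63 genes (0.351%), 32 with a positive and 31 with a negative difference (0.178% and 0.173%), and 1659 had an unadjusted p below 0.05. Only 1 gene, *DNAH17*, passed against a 1.2-fold change. In the 4 groups it was at 2.17, 2.44 and 1.79 CPM with DMSO, 1.84, 1.42 and 1.61 CPM with grazoprevir, 2.45, 1.98 and 2.76 CPM with untriggered and 7.74, 7.39 and 7.31 CPM with triggered split Csy4. It was thus raised in the triggered libraries and not in the untriggered ones, and the difference of effects was 2.03 ± 0.31 (adjusted p = 4.69e-05, edgeR). *DUSP8* followed at 1.08 ± 0.22 (adjusted p = 0.01, edgeR), with 4.5, 4.19 and 4.33 CPM, 3.82, 4.07 and 3.48 CPM, 5.31, 8.81 and 7.72 CPM, and 14.4, 12.8 and 13 CPM in the same order of groups. *ANKRD1* went from 6.72, 6.95 and 7.69 CPM with DMSO to 13.6, 16.7 and 16.7 CPM untriggered, and to 25.5, 25.3 and 26.2 CPM triggered, so the untriggered libraries stood above the untransfected ones and the triggered libraries higher still (0.68 ± 0.16, adjusted p = 0.0293, edgeR). That call was lost when any of 10 of the 12 libraries was left out, all but grazoprevir replicate 1 and untriggered replicate 2.

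p53 targets stood among the genes with a positive difference, 5 of the 24 in the feedback list with 0 negative. *CDKN1A* was at 38.7, 33.6 and 39.4 CPM with DMSO, 33.7, 35.8 and 38.0 CPM with grazoprevir, 33.9, 36.7 and 36.5 CPM untriggered and 46.6, 47.8 and 48.0 CPM triggered. Only the triggered libraries were raised (difference of effects 0.46 ± 0.092, adjusted p = 0.00513, edgeR). *TP53INP1* was at 25.8, 27.7 and 25.4 CPM with DMSO, 20.7, 24.2 and 22.8 CPM with grazoprevir, 29.6, 31.1 and 32.8 CPM untriggered and 41.2, 46.1 and 41.6 CPM triggered, a difference of 0.68 ± 0.10 (adjusted p = 4.69e-05, edgeR). *MDM2*, *PPM1D* and *BTG2* differed by 0.24, 0.34 and 0.35. *ZNF79* (0.71 ± 0.15) and *NRAV*, a long noncoding RNA that dampens antiviral genes (0.90 ± 0.21), completed the largest positive differences, with adjusted p-values of 0.0121 and 0.0273 (edgeR). The first call was lost without triggered replicate 1, grazoprevir replicates 2 or 3 or DMSO replicate 1, and the second without triggered replicate 1, grazoprevir replicate 3, untriggered replicates 1 or 3 or DMSO replicates 2 or 3. The mitotic genes *CENPE* and *CENPF* were also in this set, at 0.26 and 0.18.

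Of the 31 genes with a negative difference, 14 were cytosolic ribosomal protein genes and 2 ribosomal protein pseudogenes. Triggered against untriggered split Csy4, tested in the same fit, called 36 of the 17966 genes, 35 higher and 1 lower. At most 1 of the 31 genes was therefore called lower in triggered than in untriggered libraries. *RPS29* was at 115, 116 and 116 CPM with DMSO, 137, 148 and 126 CPM with grazoprevir, 115, 116 and 116 CPM untriggered and 97.9, 104 and 108 CPM triggered, a difference of -0.41 ± 0.067 (adjusted p = 0.000222, edgeR). *RPLP1* was at 421, 443 and 453 CPM, 499, 510 and 479 CPM, 423, 423 and 424 CPM, and 378, 397 and 415 CPM in that order, a difference of -0.27 ± 0.049. In both genes the untransfected grazoprevir libraries were high and the triggered libraries low, with DMSO and untriggered between. *RPS21*, *SSR4*, a subunit of the translocon-associated complex, *ENY2*, an mRNA export factor, *MYDGF*, a secreted growth factor, and *NDUFAB1*, the acyl carrier protein of mitochondria, differed by -0.33, -0.37, -0.37, -0.38 and -0.32, and of 22 alternative settings 16, 17, 15, 7 and 9 kept the call. *MYDGF* was not changed in the comparison at constant drug (0.021 ± 0.067, adjusted p = 0.845, edgeR) and was higher than DMSO in each of the other groups, by 0.34 with grazoprevir alone and by 0.40 with untriggered split Csy4, so that DMSO was the low group. Of the 63 genes with a call in the interaction, 18 were called with grazoprevir alone against DMSO, a test that called 36 of all tested genes (0.2%). All 31 genes with a negative difference were above DMSO with grazoprevir alone, and 29 of the 32 with a positive difference were below it. The interaction itself subtracts the change from DMSO to grazoprevir alone. Picking genes by it therefore favours these calls and this split, which are not a separate observation. The median transcript was 694 bases in the set of 31 and 2950 in the set of 32, in the direction of the length trend of the grazoprevir libraries, and a correction for length and GC content gave 71 calls, against 84 in the same genes without it. *NDUFAB1* lost its call under the correction, and *RPS29*, *RPS21*, *SSR4* and *ENY2* kept theirs.

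**Figure D4:**
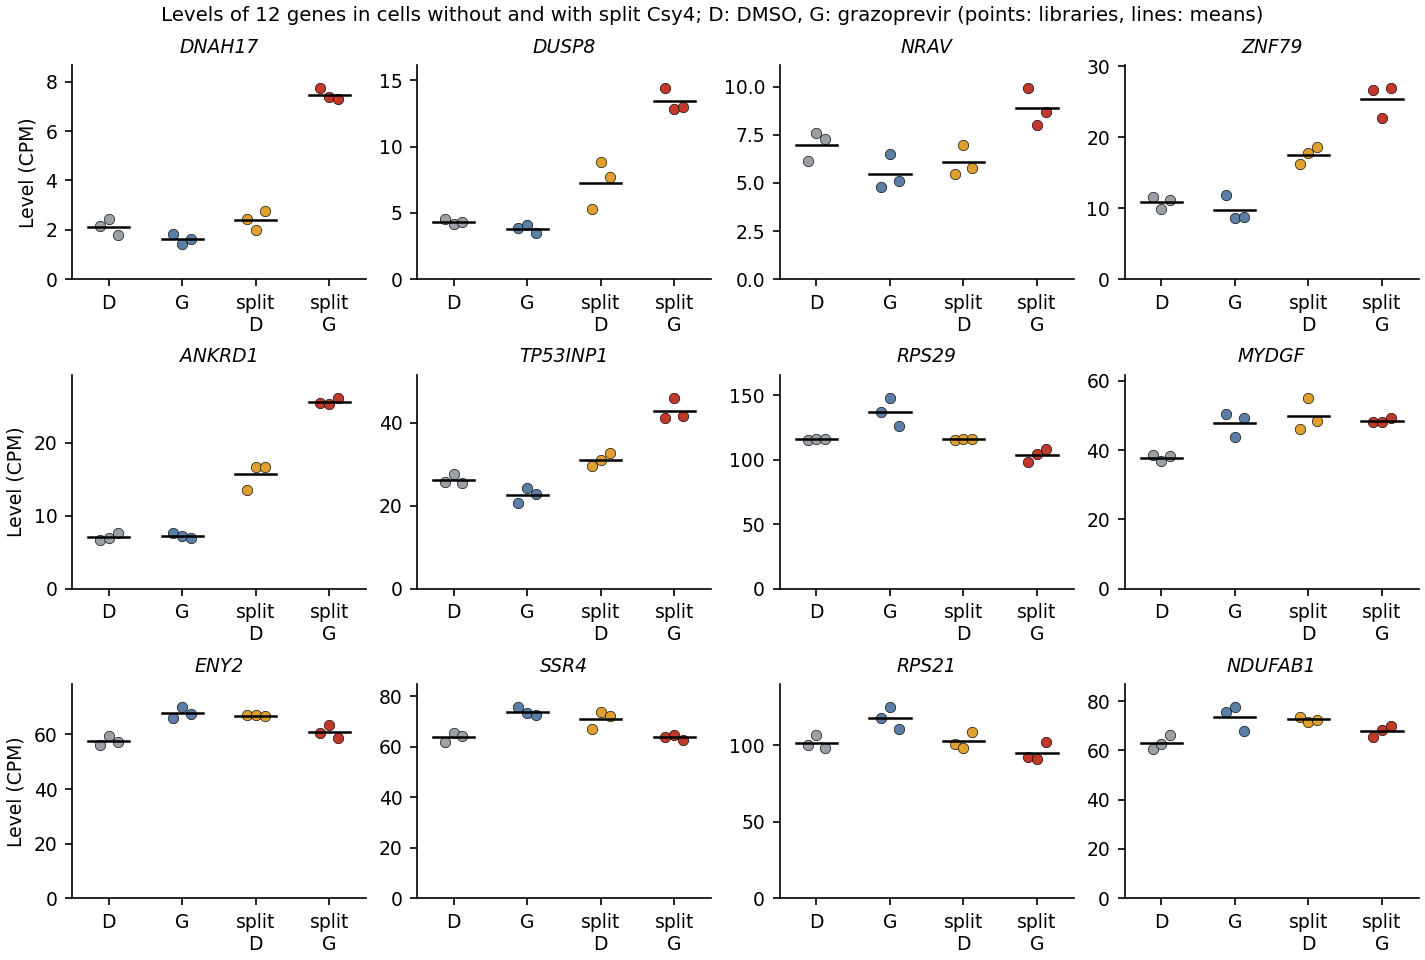
Levels in CPM (linear axes from 0) of the 12 genes named for the largest differences between the split Csy4 effect with grazoprevir and with DMSO; each point is 1 library of DMSO, grazoprevir alone, untriggered or triggered split Csy4, and lines are means. *DNAH17* is raised in the triggered libraries alone, while *RPS29* is highest with grazoprevir alone and lowest in the triggered libraries.

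The number of such genes depended on single libraries. It was 141 without grazoprevir replicate 1 and 27 without grazoprevir replicate 2, 14 without triggered replicate 1 and 25 without triggered replicate 2, 28 and 16 without untriggered replicates 2 and 3, and 24, 37 and 38 without DMSO replicates 1, 2 and 3. Leaving out triggered replicate 3, grazoprevir replicate 3 or untriggered replicate 1 gave 50, 44 and 81. In all 12 cases 11 genes remained called: *DNAH17*, *DUSP8*, *TP53INP1*, *CDKN1A*, *RPLP1*, *RPS29*, *EP300*, *CHD9*, *CREB5*, *CENPE* and 1 unnamed locus. *EP300*, a histone acetyltransferase and coactivator, *CHD9*, a chromatin remodeller, and *CREB5*, a partner of AP-1, are named because of this count, after their values were seen.

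The triggered split enzyme was next set against full-length Csy4, each relative to untransfected cells with the same treatment. This asks whether the same transcripts differed in cells with the triggered split form as in cells with the complete enzyme. These groups differ in construct and in treatment as well. The amounts of either protein and the joining of the split pieces were not measured here. Full-length Csy4 against DMSO called 8425 genes (46.9%), and 4219 were called in both comparisons in the same direction, which is 73.1% of those of triggered split Csy4 and 50.1% of those of full-length Csy4, with 149 in opposite directions. Over 10136 genes the Pearson correlation was 0.741 and the Spearman correlation 0.73. The 2 effects differed in 2308 genes (12.8%), of which 1362 (7.58%) were higher and 946 (5.27%) lower with triggered split Csy4, 47 and 145 of them by at least 2-fold. With library totals alone in place of TMM factors the split was 903 higher and 1530 lower, so the balance of directions is not stable; 416 genes passed against a 1.2-fold difference.

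The p53 targets separated triggered split from full-length Csy4 cells by the size of their change. Of 24 feedback targets 20 had a smaller effect with triggered split Csy4 and 1 a larger one, at a median difference of -0.791, and of 15 apoptosis targets 9 and 1. *MDM2* rose by 0.58 with triggered split and by 2.06 with full-length Csy4, a difference of -1.47 (adjusted p = 4.75e-38, edgeR). *AEN* rose by 0.54 and 1.68, and *TP53INP1* by 0.92 and 1.93. For *FDXR* the signs were opposite, -0.28 and 1.10, and *DDB2*, not called with triggered split Csy4, was at 1.38 with the full-length enzyme. Stress genes near silence in untransfected cells showed the largest gaps. *HSPA6*, an inducible HSP70 with a close pseudogene that can share its reads, was at 0.438, 0.569 and 0.41 CPM with triggered split and 33.3, 28.3 and 32.8 CPM with full-length Csy4, and *GDF15* at 2.26, 2.19 and 1.71 CPM against 12.1, 10 and 13.4 CPM. Their differences of effects, -5.98 ± 1.3 and -3.16 ± 0.64, rest on few counts in untransfected cells and depend on the prior count. Also smaller with triggered split Csy4 were *DHRS2*, a mitochondrial reductase (-2.64), *PLXNB3*, a semaphorin receptor (-2.55), the adhesion molecule *NECTIN4* (-2.22) and *PDE4C*, a phosphodiesterase of cyclic AMP (-2.08).

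Other transcripts were low with the full-length enzyme and not with the triggered split form, and the test of the difference called them. *MAP4*, a microtubule-binding protein (chromosome 3, 47850695 to 48088848), was at 325, 288 and 302 CPM with grazoprevir, 315, 306 and 320 CPM with triggered split Csy4 and 319, 317 and 308 CPM with DMSO, but at 143, 138 and 142 CPM with full-length Csy4. The difference of effects was 1.2 ± 0.053 (adjusted p = 2.37e-31, edgeR). *DMAC2*, an assembly factor of complex I, was at 41.6, 38.7 and 39.5 CPM and 43.4, 43.3 and 49.9 CPM in the drug groups, at 38.6, 39.7 and 40 CPM with DMSO and at 19.5, 16.9 and 20.9 CPM with full-length Csy4. In both genes the full-length libraries alone were low. *RIN3* (1.29), *NREP* (1.24), *FRMD3* (1.22; lost without DMSO replicate 1 or full-length replicate 2, highest adjusted p over its alternatives 0.0869, edgeR) and *HMBOX1* (1.19) were the other large positive differences. Cholesterol genes differed in 15 of 24 cases in this direction and in 1 in the other (median 0.319), with *INSIG1* at -0.33 with triggered split and -1.23 with full-length Csy4. The counts were 10 and 0 for glycolysis, 8 and 0 for fatty acid synthesis, 10 and 1 for YAP/TEAD targets and 18 and 4 for cytosolic ribosomal proteins. Hosts of small nucleolar RNAs differed in 14 of 23 cases in the negative direction, at a median of -0.367. *ANKRD1* (1.83 and 2.12), *DUSP8* (1.82 and 2.00) and *AMH* (2.03 and 2.41) were not called in this test, which does not show that they were equal.

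**Figure D5:**
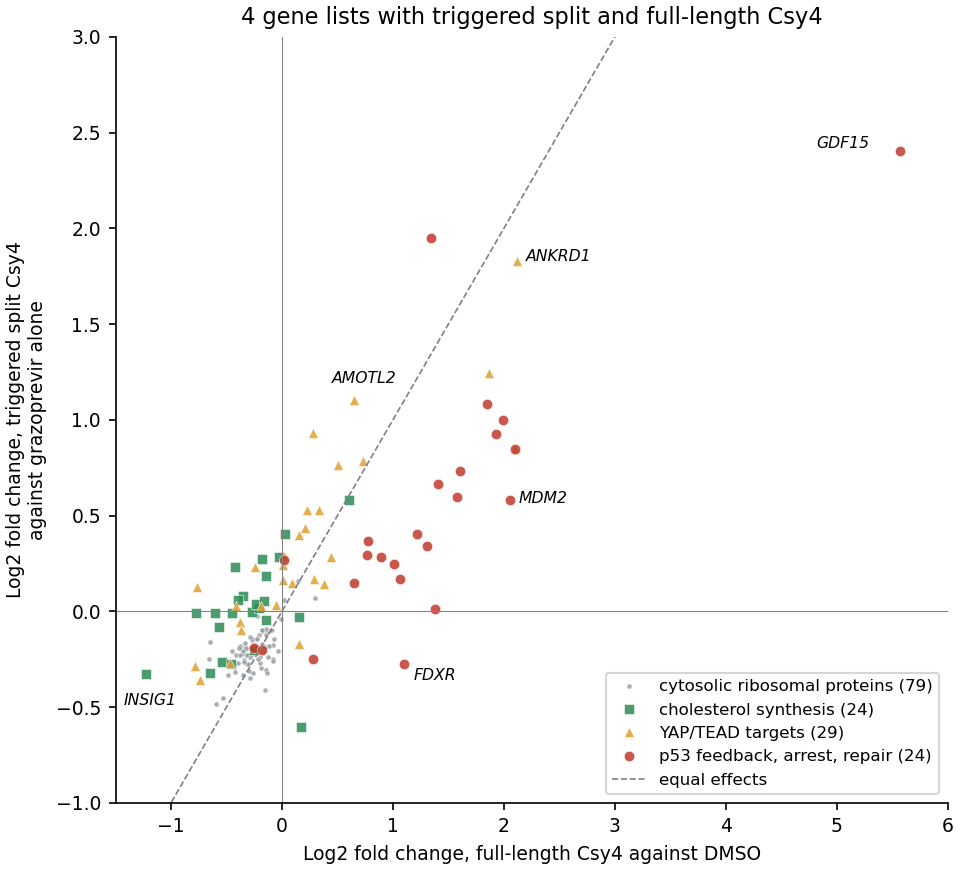
Log2 fold change with full-length Csy4 against DMSO (horizontal) and with triggered split Csy4 against grazoprevir alone (vertical) for members of 4 gene lists; each point is 1 gene and the line marks equal changes. Most p53 targets lie to the right of the line, with *MDM2* at 2.06 and 0.58, while most ribosomal protein genes lie below 0 on both axes.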

How the data were processed

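The study measured poly(A) RNA of HEK-293T cells by RNA-seq in 18 libraries, of which the 6 of triggered split Csy4 and grazoprevir alone are described here. The deposited table holds read counts per gene for 59251 genes; per the submitters' processing notes the authors used cutadapt 1.9.1, HISAT2 2.2.1, HTSeq 0.6.1 and DESeq2 1.44.0 with hg38. The strand setting of the counting is not given in the sources used here. All 18 libraries were fitted together in edgeR 4.0.16 (R 4.3.3) with its default filter on low counts, TMM factors and a robust quasi-likelihood fit, and p-values were adjusted by Benjamini and Hochberg over 17966 genes. The biological coefficient of variation was 4.1%. SEs are approximate, taken from each fold change and its F statistic.

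Levels are CPM with TMM factors. Named genes are the 12 largest rises and falls among called genes that averaged 5 CPM or more in either group, with no overlap of libraries (unnamed loci, pseudogenes, antisense genes and copies that share reads passed over), up to 3 called members of each list per direction by adjusted p, the 6 largest positive and negative differences in each interaction test, and *FKBP1A*, *MTOR*, *ACTB* and *GAPDH*. Other list members were named after their values were seen. The comparison, the 42 lists (1308 symbols, 4 matched by an older symbol) and the named genes were chosen with earlier results of these data known. RefSeq tables (GRCh38.p14) matched 57842 genes and gave the positions and promoters of named genes. Transcript lengths, GC content, gene spans and neighbouring genes came from the GENCODE annotation. On simulated counts for this comparison (17490 genes) the fit called 26% of 50 genes given a 1.2-fold change, 60% of those at 1.5-fold, 90% of those at 2-fold and 100% of those at 4-fold, with 8 calls among 17290 unchanged genes. The simulation changed a far smaller share of genes than was called in the data. Its adjusted threshold was therefore stricter, and these percentages may understate what the fit finds here. Replicate numbers did not pair the samples. DESeq2 1.42.0 and other scalings, filters and designs were run as alternatives. RNA from the Csy4 constructs was not analysed here.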

Additional observations from a re-analysis of the deposited data

Results flagged for a closer look

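A test of the difference itself flagged 63 genes whose split Csy4 effect differed between grazoprevir and DMSO (edgeR's interaction test, adjusted p below 0.05). Among named genes with a positive difference, the log2 differences of effects were 2.03 for *DNAH17*, 1.08 for *DUSP8*, 0.9 for *NRAV*, 0.71 for *ZNF79*, 0.68 for *ANKRD1* and 0.68 for *TP53INP1*. In the same direction the p53 targets *CDKN1A*, *BTG2*, *PPM1D* and *MDM2* differed by 0.46, 0.35, 0.34 and 0.24, and the mitotic genes *CENPE* and *CENPF* by 0.26 and 0.18.

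The negative differences were -0.41 for *RPS29*, -0.38 for *MYDGF*, -0.37 for *ENY2*, -0.37 for *SSR4*, -0.33 for *RPS21* and -0.32 for *NDUFAB1*. Other ribosomal protein genes of the small subunit differed by -0.25 (*RPS12*), -0.23 (*RPS27A*), -0.21 (*RPS19*), -0.2 (*RPS9*) and -0.19 (*RPS15A*). Those of the large subunit differed by -0.27 (*RPLP1*), -0.26 (*RPLP2*), -0.25 (*RPL37A*), -0.23 (*RPL34*), -0.23 (*RPL35A*), -0.21 (*RPL13*) and -0.19 (*RPL31*); many of these have pseudogenes that can share reads. The actin-binding peptide gene *TMSB10* differed by -0.28, the disulfide isomerase *PDIA3* by -0.21 and *HSPA1B*, which has a near-identical copy, by -0.18.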

How the results depend on the processing

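Of the alternative values computed, 5051 kept their direction and side of the threshold or stayed near the value reported, 114 moved, 257 lost and 6 gained a call. No called value changed sign. Values near 0 that were no call did, among them the medians of the MYC and MAX network (-0.0232 to 0.0275 with the length and GC correction) and of the mTOR list (0.0278 to -0.0348 without triggered replicate 3), and the blood marker median, from 1 tested gene, went from -0.467 to 0.205 without triggered replicate 3. Against a 1.2-fold change in place of no change, the calls were 1160 for triggered split Csy4 against grazoprevir alone, 1 for the difference between drug and solvent and 416 for the difference from full-length Csy4, since that test asks for a larger change. Leaving out each library in turn gave 4853 to 5458, 14 to 141 and 1904 to 2322 calls for the same 3 tests; 3576 of the 5775 genes (61.9%) were called in all 6 cases of the first and 1277 of 2308 (55.3%) in every case of the last. Other scalings, filters, designs, a length and GC correction and DESeq2 gave 5240 to 5787, 55 to 90 and 2081 to 2603 calls. With library totals alone, the difference from full-length Csy4 split into 903 higher and 1530 lower genes, against 1362 and 946 with TMM factors.

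With the replicate number as a block the counts were 5690, 81 and 2296. Same-numbered libraries of the 2 groups did not deviate together (correlations -0.0991, 0.0863 and -0.108), so the numbers were not treated as pairs. The set of genes with a known length, without the correction, was added after seeing the data and gave 5528, 84 and 2354. At this depth the simulated fit missed most changes of 1.2-fold. It had a far smaller share of changed genes than was called here, which makes the adjusted threshold stricter.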
